A study of Mus musculus with 40 samples.

Results

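Genes of nuclear transport were compared between mouse embryos treated with an activated form of cyclophosphamide and untreated embryos. They were taken as every array probe that maps to 1 gene symbol starting with Kpn, Ipo and a digit, Xpo, Tnpo, Nup and a digit, Ranbp or Rangap, together with Ran, Rcc1, Cse1l, Nxf1, Nxt1, Nutf2, Tpr, Seh1l and Sec13. This gave 42 of the 6970 named genes, measured by 66 of the 15279 probes, with 42 probes of 29 genes among 7680 on array design 1 and 24 probes of 19 genes among 7599 on array design 2. Each probe was placed by its symbol among the importins, the exportins, the Ran cycle or the pore, and 6 genes lay on both designs. No probe with a single symbol was found for Nxf1, Nutf2, Tpr or Nup98, and 4 rows that carry a member's symbol beside another gene's were set aside.

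Control embryos were cultured at 37 °C without drug, and treated embryos were cultured at 37 °C for 5 h with 40 µM 4-hydroperoxycyclophosphamide present throughout, a pre-activated analogue of the alkylating drug cyclophosphamide. The sources used here give neither the strain and age of the embryos nor how many were pooled. All 40 arrays were 2-colour cDNA arrays that set total RNA of treated embryos against that of control embryos on the same slide, and each design had 5 replicates, each with both dye orientations and 2 readouts of every slide. Nothing but the labels says that the replicates came from separate cultures, so the p-values measure a spread that may be technical.

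Proteins enter and leave the nucleus through pores built of nucleoporins. Importins carry cargo in, exportins carry cargo out, and the small GTPase Ran sets the direction: Ran bound to GTP releases cargo from importins inside the nucleus and binds exportins together with their cargo. Importin alpha proteins, encoded by the Kpna genes, read the classical nuclear localisation signal and are themselves carried by importin beta, the product of Kpnb1. The exportin Cse1l returns importin alpha to the cytoplasm. Transport factors are abundant in dividing cells, such as those of an early embryo, and importin alpha and Ran also act in spindle assembly.

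The promoters of 4 genes on which the results below turn are shown, as the 250 bases before the start of transcription in RefSeq on GRCm38.p6, in the direction of transcription. They are Kpna2, Ran, Ipo7 and Ranbp2. Kpna2 probe 2053 had the lowest mean of the members, Ran and Ipo7 had higher ratios, and Ranbp2 had a lower ratio. Capitals mark CCAAT, the letters TTTGAA or TTTAAA, which occur in cell cycle homology regions, and the GC box GGGCGG, each read on both strands.
Kpna2, chr11:106999526-106999775, minus strand: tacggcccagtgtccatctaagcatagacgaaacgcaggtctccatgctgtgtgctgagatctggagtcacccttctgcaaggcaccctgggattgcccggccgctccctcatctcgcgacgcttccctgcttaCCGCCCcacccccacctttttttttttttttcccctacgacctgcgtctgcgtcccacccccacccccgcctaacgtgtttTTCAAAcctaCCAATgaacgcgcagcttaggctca
Ran, chr5:129019906-129020155, plus strand: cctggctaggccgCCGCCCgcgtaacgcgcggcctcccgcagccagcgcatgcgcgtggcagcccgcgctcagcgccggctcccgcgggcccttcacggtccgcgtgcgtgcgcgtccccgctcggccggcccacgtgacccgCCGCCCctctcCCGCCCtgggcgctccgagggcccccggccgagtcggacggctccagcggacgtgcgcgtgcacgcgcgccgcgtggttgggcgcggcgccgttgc
Ipo7, chr7:110018065-110018314, plus strand: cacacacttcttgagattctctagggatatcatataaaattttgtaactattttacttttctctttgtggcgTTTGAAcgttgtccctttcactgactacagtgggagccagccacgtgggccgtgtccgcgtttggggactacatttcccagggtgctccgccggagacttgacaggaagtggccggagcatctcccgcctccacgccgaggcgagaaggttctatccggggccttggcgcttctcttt
Ranbp2, chr10:58446602-58446851, plus strand: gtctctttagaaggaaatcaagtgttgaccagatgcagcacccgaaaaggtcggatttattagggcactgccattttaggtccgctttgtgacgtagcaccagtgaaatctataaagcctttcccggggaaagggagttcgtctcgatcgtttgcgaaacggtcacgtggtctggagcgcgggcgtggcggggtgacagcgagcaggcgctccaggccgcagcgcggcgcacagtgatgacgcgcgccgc

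In the Kpna2 promoter, a CCAAT box began 25 bases before the start, and TTTGAA was read on the opposite strand from 35 bases before it. The Ran window held 3 GC boxes in these 250 bases and none of the other letters, at a G and C content of 81.6%. The Ipo7 window held TTTGAA once, and the Ranbp2 window held none of these letters. Over windows of 300 bases, which add 50 bases after the start, 33 of the 42 genes had an entry. Counted per gene, with a match in any promoter of the gene, CCAAT was in 17 of these 33 genes (51.5%) and in 41.1% of all 27025 genes of the table. TTTGAA or TTTAAA was in 11 genes (33.3%, against 30.6% of all), and GGGCGG in 24 genes (72.7%, against 38.2%). The E2F letters TTTCCCGC or TTTGGCGC were in 1 gene, Ranbp1 (3.03%, against 1.8%). These matches describe the sequence and were not tested as binding sites.

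Values are log2 ratios of treated over control embryos, relative to the median probe of the array. Direction is likely and not settled, because the sources used here do not name the numerator of the deposited ratio, which was read as channel 1 over channel 2. Ccng1, a target of the tumour suppressor p53, was above 0 on every array of both designs under this reading, with mean log2 ratios of 2.41 and 2.90 on array design 1 and 1.39 on array design 2. With the ratio turned, every higher value below is lower and every lower value higher. Some arrays of the same orientation also ran against each other over all probes, with a lowest correlation of −0.31 and −0.13 on array design 1 (treated embryos in channel 1 and in channel 2) and −0.28 and −0.54 on array design 2. A probe was called at a limma adjusted p under 0.05 over its design. The main values leave out 1 readout of replicate 4 on array design 1, which lacked 786 of its 7680 values, or 10.2%. Since the RNA came from whole embryos, fewer cells of a type and less RNA per cell cannot be told apart. Ratios carry no levels, so the presence of embryo marker transcripts was not checked.

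The share of nuclear transport probes called was near or below that of all probes, and their ratios were small, as were those of most probes. On array design 1, 5 of 42 probes were called higher and 1 was called lower, which is 14.3% of the members beside 15.9% of all probes (10.2% higher and 5.77% lower). On array design 2, 4 of 24 probes were called higher and 1 lower, or 20.8%, beside 27.8% of all probes (19.8% higher and 8.07% lower). Neither share exceeded that of all probes. With the ratio turned, the counts read 1 higher and 5 lower, and 1 higher and 4 lower. The members' median log2 ratio was 0.031 on each design, against −0.0024 and 0.017 over all probes. No member lay beyond 0.5 in either direction, beside only 51 of all 7680 probes on array design 1 and 72 of 7599 on array design 2. The members ranged from −0.23 to 0.34 on array design 1 and from −0.22 to 0.19 on array design 2. The 11 called probes stood for 9 genes: Ipo7, Ipo9, Kpna2, Kpna6 and Tnpo1 among the importins, Ran in the Ran cycle, and Nup50, Nup62 and Ranbp2 in the pore.

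These counts rest on how the arrays were treated. With the incomplete readout kept, no member of array design 1 was called (limma, beside 0.651% of all probes, 0.638% higher), and 6 of the 42 had an unadjusted p under 0.05. Without centring, the median of all probes was −0.32 on array design 1 and −0.41 on array design 2, and 35 of 42 and 24 of 24 members were called lower. That setting called 82.5% and 87.3% of all probes lower and 0.781% and 0.276% higher, or 83.3% and 87.6% in either direction. On array design 1 the members called higher numbered 0 without replicate 4, 2 without replicate 1 and 3 without replicate 5. On array design 2 they numbered 0 without replicate 1 and 1 without either replicate 3 or replicate 4. Without replicate 5, 2 members were called lower on each design. The share of all probes called without a replicate was not counted. A change over the whole array thus cannot be told apart from one among the members. Over all probes, the ratios also followed the dye effect. Among the members, the ratio and the dye part correlated at −0.01 on array design 1 and 0.43 on array design 2. When the part of each replicate's ratios that follows the probes' dye profile was removed, 34.4% to 74.0% of the variance of a replicate on array design 1 and 35.3% to 61.6% on array design 2 went with it. After that step 1.54% of all probes were called on array design 1 (0.977% higher and 0.56% lower) and 5.03% on array design 2 (3.15% higher and 1.88% lower). The only members among them were both probes of Kpna2, called lower, with 9 members of array design 1 and 7 of array design 2 at an unadjusted p under 0.05. The same step moved Ccng1 from 2.41 to 2.15 and from 2.90 to 2.53 on array design 1. On array design 2 it went from 1.39 to 1.40. Whether the smooth fit also took out part of the response to the drug was not tested.

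**Figure D1:**
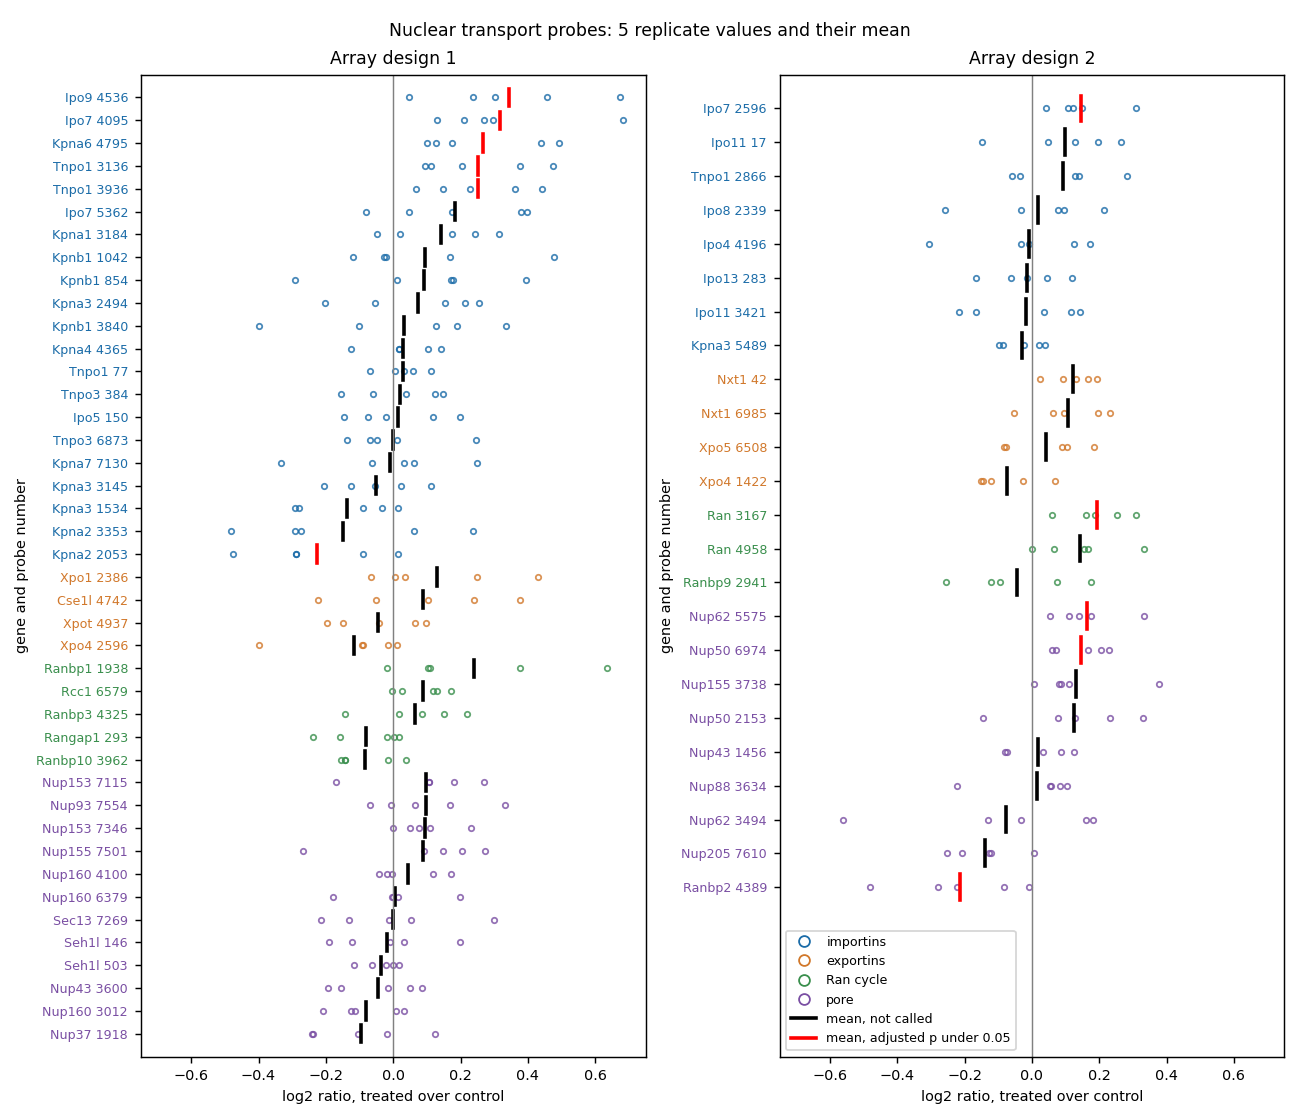
Each row is a nuclear transport probe, with the gene symbol and probe number on the vertical axis and the log2 ratio of treated over control embryos on the horizontal axis, for array design 1 (left) and array design 2 (right). Open circles are the 5 replicate values, coloured by role, and bars are their mean, red at a limma adjusted p under 0.05. Means run from −0.23 for Kpna2 to 0.34 for Ipo9 on array design 1 and from −0.22 for Ranbp2 to 0.19 for Ran on array design 2, and without centring no member was called higher.

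Importins held all 6 calls on array design 1, with 5 of their 21 probes (12 genes) higher and 1 lower, or 28.6% beside the 15.9% of all probes. Kpna2 encodes importin alpha 1, the importin alpha of proliferating cells, and had the lowest ratio among the members of array design 1. Its probe 2053 read −0.29, −0.29, −0.48, −0.09 and 0.01 in replicates 1 to 5, so 4 of 5 replicates lay below 0. The mean was −0.23 ± 0.19 (SD, n = 5, limma adjusted p = 0.0447), a ratio of 0.855. Its second probe, 3353, read −0.27, −0.29, −0.48, 0.06 and 0.24, with a mean of −0.15 ± 0.29 (SD, n = 5, limma adjusted p = 0.243), and was not called. Both probes were low in replicates 1, 2 and 3 and near or above 0 in replicates 4 and 5. The 95% interval from the probe's own spread ran from −0.46 to 0.01 for probe 2053. Its call ended when any of replicates 1 to 4 was left out (limma adjusted p from 0.0752 to 0.128) and held without replicate 5 (0.00415).

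Single arrays of Kpna2 split by dye orientation. With treated embryos in channel 1, probe 2053 was below 0 on 9 of 10 arrays, with values from −1.31 to 0.53 and a mean of −0.50. With treated embryos in channel 2 it was below 0 on 4 of 9 arrays, with values from −0.49 to 0.47 and a replicate mean of 0.05. Probe 3353 had means of −0.49 and 0.19 in the same orientations. Replicate 5 ran the other way round, above 0 on 3 of the 4 array values with treated embryos in channel 1 and below 0 on all 4 with treated embryos in channel 2. The mean without turning, which is the dye part, was −0.27 for probe 2053 and −0.34 for probe 3353.

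With the dye-profile trend removed, the replicates of Kpna2 drew together. The step takes variance out of every replicate, and those of other members, such as Ipo9 and Cse1l, drew together as well. For Ipo7 probe 4095 they did not. Probe 2053 then read −0.47, −0.40, −0.51, −0.45 and −0.51, and probe 3353 read −0.46, −0.54, −0.48, −0.40 and −0.36. All 10 values lay below 0. The means were −0.47 ± 0.04 (SD, n = 5, limma adjusted p = 0.000242) and −0.45 ± 0.07 (SD, n = 5, limma adjusted p = 0.000485). Among the 7680 probes of array design 1 these were the lowest and the 3rd lowest means. Both calls held without each replicate in turn, with limma adjusted p from 0.00136 to 0.00463. The trend was fitted once, on the dye profile of all 5 replicates, before replicates were left out or split by slide series. A replicate left out therefore still shaped the values that were kept. Slides carry numbers of the 2000 or 3000 series, with 2 and 3 of the replicates. Within the 2000 series the values were −0.43 (limma adjusted p = 0.0732) and −0.50 (0.0387), and within the 3000 series −0.49 (0.00706) and −0.41 (0.0149). Kpna2 was not measured on array design 2. A cDNA probe can also bind transcripts of closely related sequence, and both Kpna2 probes stand for the same gene in the same RNA, so they are no independent replicates.

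**Figure D2:**
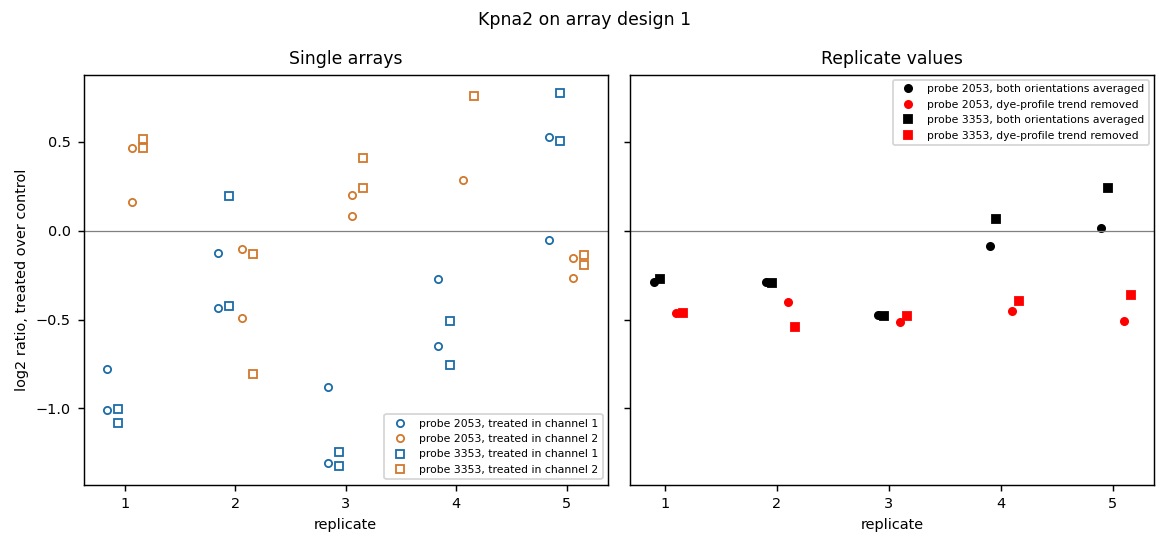
Kpna2 on array design 1, with the replicate on the horizontal axis and the log2 ratio of treated over control embryos on the vertical axis; circles are probe 2053 and squares probe 3353. The left panel shows single arrays by the channel of the treated embryos, spread from −1.32 to 0.77, and the right panel the 5 replicate values before (black) and after (red) removal of the dye-profile trend, where all red points lie between −0.54 and −0.36.

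Ipo9 encodes importin 9, a carrier of histones and ribosomal proteins, and had the highest ratio among the members. It read 0.24, 0.30, 0.05, 0.46 and 0.67, with all 5 replicates above 0. The mean was 0.34 ± 0.24 (SD, n = 5, limma adjusted p = 0.0137), or 1.27-fold. The rise lay in one orientation, with −0.03 for treated embryos in channel 1 and 0.72 in channel 2. With the dye-profile trend removed the mean was 0.01 ± 0.03. Kpna6, another importin alpha, read 0.17, 0.13, 0.10, 0.49 and 0.44, with a mean of 0.27 ± 0.18 (SD, n = 5, limma adjusted p = 0.0235). Its orientations gave −0.09 and 0.63, and the mean with the trend removed was 0.13 (limma adjusted p = 0.159). For both genes the replicates 4 and 5 were the highest.

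Tnpo1 encodes transportin 1, which imports RNA-binding proteins. Its probe 3136 read 0.20, 0.09, 0.11, 0.38 and 0.47, and its probe 3936 read 0.23, 0.15, 0.07, 0.36 and 0.44. Both means were 0.25 (SD 0.17 and 0.15, n = 5, limma adjusted p = 0.0251 and 0.0235), and both were above 0 in every replicate. Another probe on the same design, number 77, read from −0.07 to 0.11 with a mean of 0.03 ± 0.07 (adjusted p = 0.755). The probe of array design 2 had a mean of 0.09 ± 0.14 (adjusted p = 0.239). After removal of the trend the 4 Tnpo1 probes lay between −0.05 and 0.06.

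Ipo7, which encodes importin 7, a carrier of ribosomal proteins and some signalling factors, was called higher on both designs in the main setting. Probe 4095 read 0.13, 0.21, 0.68, 0.27 and 0.30 on array design 1, with replicate 3 far above the other 4. Its mean was 0.32 ± 0.21 (SD, n = 5, limma adjusted p = 0.0157), or 1.25-fold. Unlike Ipo9, this probe was as high in one orientation as in the other, at 0.33 and 0.31, and its dye part was 0.01. The probe of array design 2 read 0.31, 0.04, 0.11, 0.15 and 0.12, with a mean of 0.15 ± 0.10 (SD, n = 5, limma adjusted p = 0.0487). Its orientations gave −0.04 and 0.33. The second probe of array design 1, 5362, read from −0.08 to 0.40 with a mean of 0.18 ± 0.21 (adjusted p = 0.0915). After removal of the trend none of the 3 Ipo7 probes was called, at 0.18 (limma adjusted p = 0.334), −0.01 and 0.08. The call on array design 2 held in only 3 of the other settings. It was lost with the same sign in 14 and turned sign in 2. Probe 4095 kept its call in 12 of the other settings and lost it in 9, among them that with every readout kept (limma adjusted p = 0.0516).

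The other importins were not called. Kpnb1, which encodes importin beta 1, had 3 probes with means of 0.10, 0.09 and 0.03 and SDs of 0.24, 0.25 and 0.29. In each of them replicate 3 was the lowest and replicate 5 the highest. The importin alpha genes Kpna1 and Kpna4 had means of 0.14 ± 0.15 and 0.03 ± 0.10, and Kpna7 had −0.01 ± 0.21. The 4 probes of Kpna3 lay between −0.14 and 0.07. Tnpo3, a carrier of splicing factors, had 2 probes at 0.02 and 0.00, and Ipo5 had 0.01. On array design 2, 1 of 8 importin probes was called, the Ipo7 probe above, or 12.5% beside 27.8% of all probes. Ipo4, Ipo8, Ipo13 and the 2 probes of Ipo11 lay between −0.02 and 0.10.

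None of the 8 exportin probes, 4 on each design, was called by limma, beside 15.9% of all probes on array design 1 and 27.8% on array design 2. So few probes cannot show a share below that of all probes. At an unadjusted p under 0.05 lay 1 of them, Nxt1 probe 42. Xpo1, the main exportin of proteins with leucine-rich signals, read 0.01, 0.04, −0.07, 0.25 and 0.43, with a mean of 0.13 ± 0.20 (SD, n = 5, limma adjusted p = 0.217). Cse1l, which exports importin alpha, read 0.10, −0.05, −0.22, 0.24 and 0.38, with a mean of 0.09 ± 0.24 (SD, n = 5, limma adjusted p = 0.439). All 5 Cse1l replicates lay below 0 once the trend was removed, from −0.26 to −0.09, with a mean of −0.17 ± 0.06 and a limma adjusted p of 0.0558. That was the smallest adjusted p of that step among the members of array design 1 other than Kpna2. Nxt1, a cofactor of mRNA export, was above 0 in all 5 replicates on probe 42 (0.12 ± 0.07, limma adjusted p = 0.0866) and in 4 of 5 on probe 6985 (0.11 ± 0.11, adjusted p = 0.152). Xpo5, which exports microRNA precursors, had a mean of 0.04 ± 0.12, and Xpot, which exports tRNA, −0.05 ± 0.13. Xpo4 lay at −0.12 ± 0.16 and −0.07 ± 0.09 on the 2 designs.

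In the Ran cycle, Ran was called on 1 of its 2 probes, both on array design 2, where 27.8% of all probes were called. Probe 3167 read 0.25, 0.19, 0.06, 0.16 and 0.31, above 0 in every replicate. The mean was 0.19 ± 0.09 (SD, n = 5, limma adjusted p = 0.0111), or 1.14-fold, the highest of the members on that design. Probe 4958 read 0.16, 0.00, 0.06, 0.17 and 0.33, with a mean of 0.14 ± 0.13 (SD, n = 5, limma adjusted p = 0.0591), just past the threshold. Probe 3167 had means of −0.02 with treated embryos in channel 1 and 0.41 in channel 2, and probe 4958 0.00 and 0.29. With the trend removed both probes were below 0 and not called, at −0.08 (limma adjusted p = 0.263) and −0.10 (limma adjusted p = 0.211). Without centring, probe 3167 was called lower at −0.23, and without replicate 1 its adjusted p was 0.0516.

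The regulators of Ran were measured on array design 1, where limma called none of 5 probes, beside 15.9% of all probes. So few probes cannot show a share below that of all probes. Of the 5, 1 (Ranbp1) had an unadjusted p under 0.05. Ranbp1, which helps hydrolysis of GTP on Ran, read 0.11, 0.10, −0.02, 0.38 and 0.63, with a mean of 0.24 ± 0.26 (SD, n = 5, limma adjusted p = 0.0584). Replicates 4 and 5 were again the highest, and the mean with the trend removed was −0.02. Rcc1, the nucleotide exchange factor of Ran on chromatin, had a mean of 0.09 ± 0.07. Rangap1, the GTPase activator of Ran, had −0.08 ± 0.11. Ranbp3 lay at 0.07 ± 0.14 and Ranbp10 at −0.08 ± 0.09. Ranbp9, on array design 2, lay at −0.04 ± 0.17.

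Of the pore genes, none of 12 probes was called on array design 1 (limma, 0 at an unadjusted p under 0.05), beside 15.9% of all probes. The pore probes called on array design 2 were 3 of 9, with 2 higher and 1 lower, or 33.3% beside 27.8% of all probes. Ranbp2, the large nucleoporin of the cytoplasmic filaments that also joins SUMO to proteins, had the lowest ratio there. It read −0.48, −0.22, −0.28, −0.01 and −0.08, below 0 in every replicate and lowest in replicate 1. The mean was −0.22 ± 0.18 (SD, n = 5, limma adjusted p = 0.0137), a ratio of 0.861. With treated embryos in channel 1 it was below 0 on 10 of 10 arrays, with a mean of −0.61. In the other orientation it was above 0 on 8 of 10 arrays, with a mean of 0.18. The call ended without replicate 1 (−0.15, limma adjusted p = 0.114), within the 3000 series (−0.05) and with the trend removed (−0.09 ± 0.13, limma adjusted p = 0.299).

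Nup62, of the central channel, and Nup50, of the nuclear basket, were each called higher on 1 of 2 probes. Nup62 probe 5575 read 0.33, 0.17, 0.11, 0.14 and 0.05, with a mean of 0.16 ± 0.11 (SD, n = 5, limma adjusted p = 0.0321). Its orientations gave 0.69 and −0.36, the largest opposition among the called members. The other Nup62 probe, 3494, read 0.18, 0.16, −0.13, −0.03 and −0.56, with a mean of −0.08 ± 0.30, so the probes of this gene disagreed in sign. Nup50 probe 6974 read 0.21, 0.06, 0.17, 0.07 and 0.23, with a mean of 0.15 ± 0.08 (SD, n = 5, limma adjusted p = 0.0441). Its second probe, 2153, had a similar mean with a wider spread (0.12 ± 0.18, adjusted p = 0.129). With the trend removed the called probes lay at −0.04 and −0.05.

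Nup205, of the inner ring, was below 0 in 4 of 5 replicates and just missed the threshold, with a mean of −0.14 ± 0.10 (SD, n = 5, limma adjusted p = 0.0565). The outer ring genes Nup160, Nup37, Nup43, Seh1l and Sec13 lay between −0.10 and 0.05 over their 9 probes. Nup153, of the nuclear basket, had 2 probes with almost the same mean, 0.10 and 0.09. They differed in the dye part, which was 0.63 and 0.01. Nup155 lay at 0.09 ± 0.21 and 0.13 ± 0.14 on the 2 designs, Nup93 at 0.10 ± 0.16 and Nup88 at 0.01 ± 0.13.

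**Figure D3:**
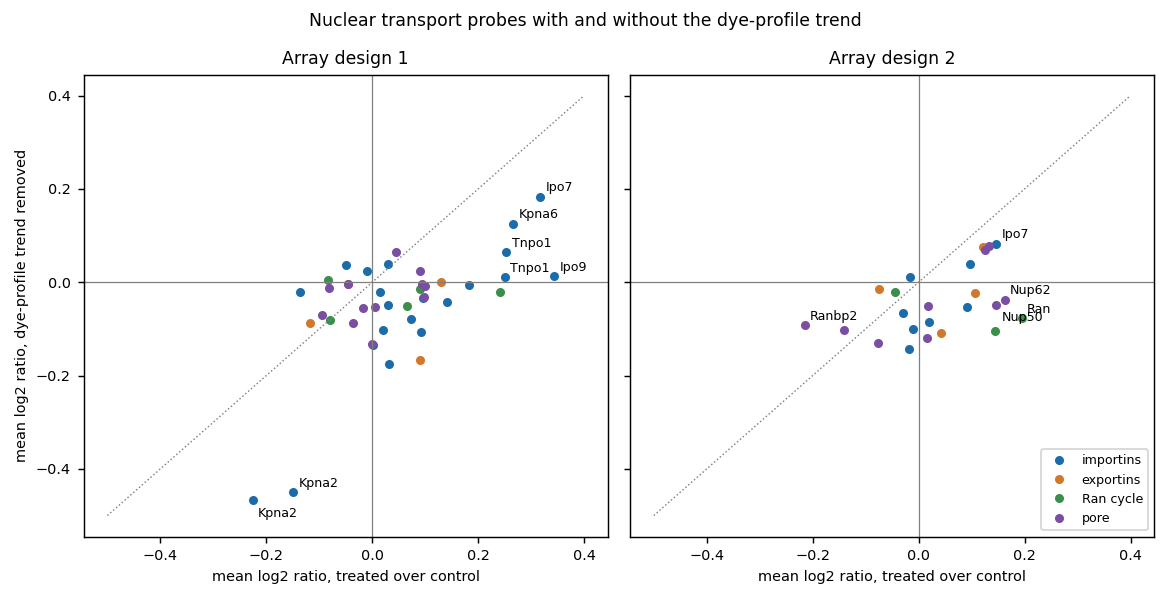
Each point is a nuclear transport probe coloured by role, with its mean log2 ratio of treated over control embryos on the horizontal axis and the mean after removal of the dye-profile trend on the vertical axis, for both array designs; the dotted line marks equal values and called probes are named. Both Kpna2 probes lie at −0.47 and −0.45 after removal, while the other probes of array design 1 lie within 0.18 of 0 and those of array design 2 within 0.14.

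Several probes of a gene, where 17 genes had them, show how far the ratio depends on the probe. The widest ranges among the probe means of a gene were 0.24 for Nup62, 0.22 for Tnpo1 and 0.21 for Kpna3. The 6 genes on both designs were compared with an exact permutation test of 5 replicate values against 5, two-sided, which cannot go below p = 0.00794. The difference of array design 1 from array design 2 was 0.10 for Ipo7 (exact p = 0.111), 0.09 for Tnpo1 (exact p = 0.294), −0.01 for Kpna3 (exact p = 0.833), −0.06 for Nup43 (exact p = 0.381) and −0.04 for both Nup155 (exact p = 0.762) and Xpo4 (exact p = 0.714). After Benjamini-Hochberg adjustment over these 6 comparisons the p-values lay between 0.667 and 0.833, so no gene was shown to differ between the designs. The slide series were compared in the same fits, and no member differed between them at an adjusted p under 0.05, beside 0.013% of all probes on array design 1 and 0% on array design 2, with 0 and 3 members at an unadjusted p under 0.05 (limma).

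**Figure D4:**
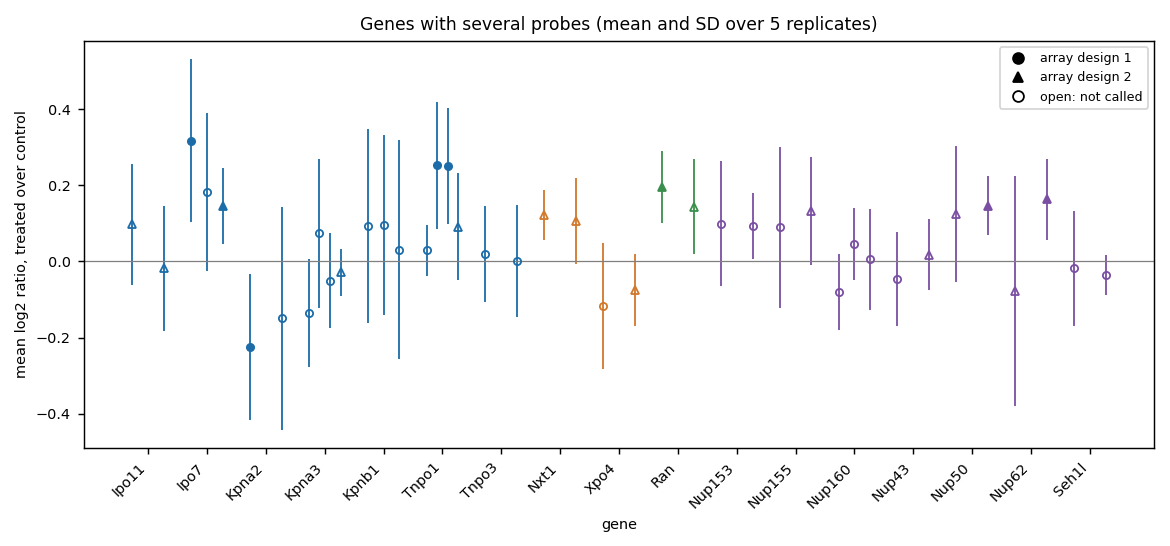
Mean log2 ratio of treated over control embryos (vertical axis) for each probe of the 17 genes with several probes (horizontal axis), with bars for the SD over 5 replicates. Circles are array design 1, triangles array design 2, and filled symbols passed a limma adjusted p of 0.05; importins are blue, exportins orange, the Ran cycle green and the pore purple. On these centred arrays the 3 Ipo7 probes all lie above 0, whereas the 2 Nup62 probes lie on either side of it.

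Other genes that work with the pore were followed in 4 lists, beside 15.9% of all probes called on array design 1 and 27.8% on array design 2. The mRNA export list also held Phax, Nmd3, Hikeshi and Snupn, which carry other cargo and were not called. In that list, 1 of 18 probes on array design 1 was called higher, Ddx19b, the helicase at the cytoplasmic face of the pore (probe 2296, 0.23 ± 0.17). The 3 of 12 probes called on array design 2, all higher, were Alyref (0.29 ± 0.13), Sem1 (probe 1231, 0.23 ± 0.08) and Zc3h11a (0.17 ± 0.07). The other Ddx19b probe, 2168, lay at −0.07 (limma adjusted p = 0.436) and the other Sem1 probe, 4179, at −0.07 (0.413), neither called and both of opposite sign. The Zc3h11a probes of array design 1 were not called, at 0.20 and 0.17. Of the genes for pore anchoring and assembly, none of 4 probes was called on array design 1 (1 at an unadjusted p under 0.05), where Aaas lay at −0.01 (limma adjusted p = 0.931). The called probes were 3 of 4 on array design 2, with Aaas (0.27 ± 0.18) and Tmem33 (0.17 ± 0.14) higher and Mad1l1 (−0.17 ± 0.16) lower. Of the SUMO genes, none of 11 probes on array design 1 (2 at an unadjusted p under 0.05) and 1 of 5 on array design 2 was called, Sumo2 at 0.26 ± 0.12. For the lamina and inner nuclear membrane, none of 5 probes on array design 1 was called (0 at an unadjusted p under 0.05), and on array design 2 Emd (0.32 ± 0.06) and Tmpo (0.23 ± 0.04) were higher and Lemd3 (−0.17 ± 0.10) was lower among 9 probes. Without centring every called probe of these 4 lists was lower. The list medians lay between 0.05 and 0.09 on array design 1 and between 0.04 and 0.09 on array design 2. With the dye-profile trend removed limma called no probe of these 4 lists on either design. At an unadjusted p under 0.05 lay 5 and 3 probes of the mRNA export list and 0 and 1 of pore anchoring on the 2 designs. The SUMO cycle had 1 and 0 such probes, and the lamina 2 and 2.

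Marker lists of proliferation and of other cell types were read on the same arrays. Of the proliferation probes, 5 of 10 were called higher on array design 1 (beside 10.2% of all probes) and 4 of 7 on array design 2 (beside 19.8%). On array design 1 these were the 3 Rrm2 probes, Pcna and Mcm3, while Mki67, Cdk1, Top2a, Mcm5 and Ccna2 were not called. On array design 2 they were Mcm2, Mcm6, Mcm7 and Ccna2 probe 4889, while Ccna2 probe 1393, Top2a and Mcm3 were not called. With every readout kept, 3 of the 10 were called, beside 0.651% of all probes. After removal of the trend the proliferation probes called higher were 2 of the 3 Rrm2 probes and Pcna, all on array design 1. Of all probes that step called 0.977% higher on array design 1 and 3.15% on array design 2. In that step Top2a fell on both designs, at −0.18 and −0.21, and Ccna2 fell on array design 1 at −0.18. The erythroid list had 5 of its 7 probes higher on array design 2, between 0.58 and 0.63, which stand for only 2 embryonic globin genes, with 1 probe of Hba-x and 4 of Hbb-y. Slc4a1 (0.11 ± 0.12) and Alas2 (0.00 ± 0.12) were not called, nor was Gata1, its only gene on array design 1 (−0.10 ± 0.10). With the trend removed 3 Hbb-y probes were called, beside 5.03% of all probes of that design, and Hba-x was not (0.23, limma adjusted p = 0.105). Without centring the globin probes were not called, at 0.15 to 0.20 (limma adjusted p from 0.0631 to 0.171). On array design 1, none of 4 visceral endoderm probes was called, beside 15.9% of all probes. All 4 lay below 0, and 1 of them, Apob, had an unadjusted p under 0.05 (−0.20, limma adjusted p = 0.0507). Of 2 neural probes Tubb3 was called higher (0.28 ± 0.25) and Nes was not (0.05 ± 0.07). Tubb3 was not called with every readout kept (limma adjusted p = 0.0821) or with the trend removed (0.07, limma adjusted p = 0.597). Without centring it lay at −0.03. The part of these genes in the ratios of the nuclear transport genes was not tested.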

How the data were processed

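The authors deposited 1 log2 ratio per probe for each of 40 arrays, 20 per array design. Base 2 was inferred, and image analysis, background correction and normalization before deposit are not stated in the labels or files. Probes were named through the platform annotation. RefSeq promoters came from the GRCm38.p6 table.

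Each array was centred on its median. Control-over-treated ratios were turned, readouts and then orientations were averaged, and the 5 replicate values per design were tested against 0 with limma 3.58.1 (lmFit and eBayes, R 4.3.3), two-sided, with Benjamini-Hochberg adjustment over all probes of the design and a threshold of 0.05. Probes needed values in at least 3 replicates. A readout lacking over 5% of its values was left out. The dye part is the mean of both orientations without turning. To remove the dye-profile trend, a smooth fit of each replicate's ratios on 3 principal components of the dye part (mgcv 1.9.3) was subtracted; the residuals were tested. Slide series (2000 or 3000, from the titles) entered as a term. Intervals are 95% from the probe's own SD. The limma fit without removal of the trend was run on simulated data. Removal of the trend was not tested on simulated data. The number of arrays limits the precision.

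The members, lists and tests were chosen with earlier results of these data known. Described are the called probes with one sign in every replicate, the probe with the smallest p of each role on each design, Ran, Rcc1, Rangap1, Ranbp1, Kpnb1, Kpna2, Xpo1, Cse1l, Ranbp2, Nup153 and Ccng1, and every other probe of these genes. The remaining members are given by mean and spread. Removal of the trend with every readout kept was added after the data were seen. So were tests of the trend-removed values without each replicate and within each slide series, and the pairing of the array designs by replicate number.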

Additional observations from a re-analysis of the deposited data

How the results depend on the processing

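Counts of called members moved with most choices. The share of all probes called, given above, was counted only for the main setting, every readout kept, no centring and removal of the trend. Under the other settings a change over all probes cannot be told apart from one among the members. The main settings gave 5 and 1 (higher, then lower) on array design 1 and 4 and 1 on array design 2. In that order the counts of array design 1 were 0 and 0 with every readout kept, 0 and 35 without centring, 2 and 0 with plain readouts only, 0 and 0 with B readouts only, 2 and 2 with treated embryos in channel 1 only, and 2 and 0 with a slide series term. They were 0 and 0 within the 2000 series, 1 and 0 within the 3000 series, and 0 and 2 with the dye-profile trend removed, with and without the incomplete readout. The lower count was 3 with treated embryos in channel 2 only, and 0 with arrays scaled to one spread or a position trend removed. On array design 2 they were 0 and 24 without centring, 1 and 0 with scaled arrays, 0 and 0 with plain readouts only, 2 and 2 with B readouts only, 0 and 0 with treated embryos in channel 2 only, 2 and 2 with a robust trended variance prior, and 0 and 0 with the dye-profile trend removed. The higher count was 1 with treated embryos in channel 1 only and 2 within each slide series. Leaving out 1 replicate at a time gave 0 to 7 and 0 to 2 on array design 1, and 0 to 5 and 0 to 2 on array design 2. With the trend removed, the lower count stayed at 2 on array design 1 and 0 on array design 2 without each replicate. It was 1 within the 2000 series on array design 1 and 1 within the 3000 series on array design 2. The trend was not refitted for these subsets. Fitting single arrays with the replicate as a random block gave 5 and 1 on array design 1 and 3 and 2 on array design 2, at a block correlation of −0.19 and −0.20. The difference between the array designs was also tested with equal replicate numbers as pairs, by an exact permutation of the signs of the 5 differences, which cannot go below p = 0.0625 and was chosen after seeing the data. Under that pairing the adjusted p of the 6 genes lay between 0.5 and 0.875, and none was called. The labels do not say that equal numbers share RNA, so the numbers were not taken as pairs. Same-numbered replicates of the 2 designs correlated at −0.018 to 0.17 in their deviations over 943 shared genes. Replicates of unlike number correlated at −0.14 to 0.12, and the highest values, 0.17 and 0.14, were between same-numbered replicates. Whether equal numbers share RNA was not tested.

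Many members changed sign with the setting, most of them without a call. Of 42 and 24 members on the 2 designs, the sign differed for 25 and 15 without centring, 15 and 7 with treated embryos in channel 1 only, 18 and 10 in channel 2 only, and 21 and 11 with the dye-profile trend removed (24 on array design 1 with every readout kept too). Under each other setting it differed for 0 to 7. Listed next are the described probes that turned and were called in at least 1 of the 2 settings. Without centring, these were the Tnpo1 probes 77, 3136 and 3936 (−0.28, −0.060 and −0.062), the Kpnb1 probes 854, 1042 and 3840 (−0.22, −0.22 and −0.28), Xpo1 (−0.18), Cse1l (−0.22), Kpna6 (−0.046), Rcc1 (−0.22) and the Nup153 probes 7115 and 7346 (−0.21 and −0.22). On array design 2 they were the Nxt1 probes 42 and 6985 (−0.31 and −0.32), the Nup50 probes 2153 and 6974 (−0.30 and −0.28), Ipo7 (−0.28), the Ran probes 3167 and 4958 (−0.23 and −0.29) and Nup62 probe 5575 (−0.27). With treated embryos in channel 1 only, Ipo9 (−0.029), Kpna6 (−0.093), Ipo7 on array design 2 (−0.042) and Ran probe 3167 (−0.018) turned, beside 6 described probes that turned without a call. With treated embryos in channel 2 only, Kpna2 probe 2053 (0.046), Nup153 probe 7115 (−0.53), Ranbp2 (0.18), Nup62 probe 5575 (−0.36) and Nup50 probe 6974 (−0.085) turned, beside 5 without a call. With the trend removed, Ran probe 3167 (−0.078), Nup62 probe 5575 (−0.038) and Nup50 probe 6974 (−0.048) turned, beside 12 without a call. Centring sets the zero of every ratio and single orientations keep the dye effect, by construction. For the other settings the cause was not tested. Signal over background is not known from ratios.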
